A study of Arabidopsis thaliana and Nicotiana tabacum with 16 samples.

Results

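The trehalose-6-phosphate synthase (TPS) family of Arabidopsis thaliana was followed through 14 ribosome profiling (Ribo-seq) libraries. The family was taken as 8 of the 27628 genes with a row in the counts over coding sequences (CDS), defined by gene identifier: TPS1 (AT1G78580) of class I, and TPS5 (AT4G17770), TPS6 (AT1G68020), TPS7 (AT1G06410), TPS8 (AT1G70290), TPS9 (AT1G23870), TPS10 (AT1G60140) and TPS11 (AT2G18700) of class II. Ribo-seq sequences the mRNA fragments that ribosomes protect from a nuclease (RPFs), so each value is a count of fragments over one CDS. It reflects mRNA amount and ribosome load together.

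All 14 libraries came from wild-type Col-0 seedlings on half-strength Murashige and Skoog medium, and no mutant was compared. Depleted libraries came from 14-day seedlings grown in 12 h light and 12 h dark, were digested with 600 U of RNase I, and were freed of rRNA with biotinylated oligo cocktail V1 or V2 (1 library each). The ligation-free and ligation-based libraries, 1 of each kit, came from 14-day seedlings with the same light cycle, 600 U of RNase I and rRNA depletion. Undepleted RNase I libraries of 14-day seedlings were made with 400, 550 or 700 U (1 library each), plus a repeat library of the 700 U fragments. MNase libraries (75, 150 and 300 U) and RNase I libraries (62.5, 125 and 250 U) came from 8-day seedlings grown in 16 h light and 8 h dark with 1% sucrose, and the labels name no sucrose for the 14-day medium.

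Each condition is 1 library, the 3 doses of a nuclease stand as its replicates, and nothing says that they came from separate plantings, so p-values measure only the spread between these libraries. The libraries held 2338819 to 11583740 counts over CDS, and a member had between 28 and 1320 counts. Levels are given as counts per 1000000 CDS counts (CPM), and intervals are exact Clopper-Pearson 95% intervals, which cover counting error only. Leaf markers summed to 30359 to 45583 CPM, all 7 root markers together to 934 to 2115 CPM, and the 4 seed storage markers to at most 4.49 CPM. All 5 leaf markers had counts in every library and at most 2 root markers had none. In such bulk samples fewer cells of a type and less RNA per cell cannot be told apart. The V1 library stood apart from V2 and lay close to the 8-day libraries although it is labelled 14-day: 147 of 16590 genes (0.886%) were called when V1 was set against the RNase I libraries of 8-day plants, but 4457 of 16136 (27.6%) when V2 was (edgeR, adjusted p under 0.05; both comparisons were added after the data had been seen). Results that rest on V1 and V2 are therefore given with and without each.

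TPS proteins join glucose 6-phosphate and UDP-glucose into trehalose 6-phosphate (T6P), a signal that in plants follows the sucrose level, and T6P phosphatases (TPP) then release trehalose, which trehalase splits. T6P inhibits the kinase SnRK1, which is active when carbon is scarce. TPS1 is the member known for synthase activity in Arabidopsis, whereas the class II proteins carry a synthase-like and a phosphatase-like domain with little or no known activity. Among class II genes, transcripts of TPS5 are known to be raised by sugar and those of TPS8 to TPS11 by carbon starvation.

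TPS1 stood on chromosome 1 from 29552340 to 29560912, with 17 coding exons in its longest CDS, against 3 coding exons in each class II gene (TAIR10 coordinates). TPS6 (25496928 to 25500584), TPS7 (1954674 to 1958866), TPS8 (26470795 to 26474833), TPS9 (8432179 to 8435656) and TPS10 (22176934 to 22181740) also lay on chromosome 1. TPS5 lay on chromosome 4 from 9876172 to 9880386, and TPS11 on chromosome 2 from 8108898 to 8112010. The counted CDS had 2553 bp in TPS7 to 2826 bp in TPS1, so that length hardly separates the members.

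Because paralogs can share reads, the CDS were compared with each other. TPS8 and TPS9 were the most alike pair with 80.8% of aligned bases identical, and TPS1 matched the class II members at 46.0% to 48.0%. Of the 28-nt windows of a CDS, about the length of an RPF, 10 of 2544 (0.393%) in TPS8 also occurred in another gene, and that gene was TPS9. TPS6 and TPS11 shared 3 windows, TPS1 shared 19 of 2802 windows (0.678%) with TPS2 and TPS4 (AT1G16980 and AT4G27550), and TPS5, TPS7 and TPS10 shared none of this length. Shorter fragments can still be shared. TPS5 and TPS6 had an exact run of 26 bases in common, TPS8 and TPS10 1 of 24 bases, and TPS7 and TPS9 1 of 20 bases. The longest stretch that any members had in common is shown in capitals with 18 bases either side, since it is the clearest case of reads that cannot be assigned within the pair; positions count from the first base of the CDS.
TPS8 (chromosome 1, CDS bases 1573 to 1640): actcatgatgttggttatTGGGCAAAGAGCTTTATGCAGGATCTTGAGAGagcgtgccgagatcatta
TPS9 (chromosome 1, CDS bases 1588 to 1655): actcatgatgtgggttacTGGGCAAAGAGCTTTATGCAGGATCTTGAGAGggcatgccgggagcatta
The shared run had 32 bases, longer than the windows searched, and outside it the printed stretches differ.

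TPS7 had nearly the same level in every library, whereas each of the other members spanned more than 2-fold between its lowest and highest library. TPS7 ranged from 109 CPM in the repeat 700 U library to 138 CPM in the MNase 300 U library, 1.26-fold over 14 libraries. TPS8 spanned the widest range, from 8.97 CPM in the ligation-free library to 126 CPM in the 400 U library, which is 14.1-fold. The other 6 members spanned 2.25-fold (TPS6) to 9.98-fold (TPS9).

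**Figure D1:**
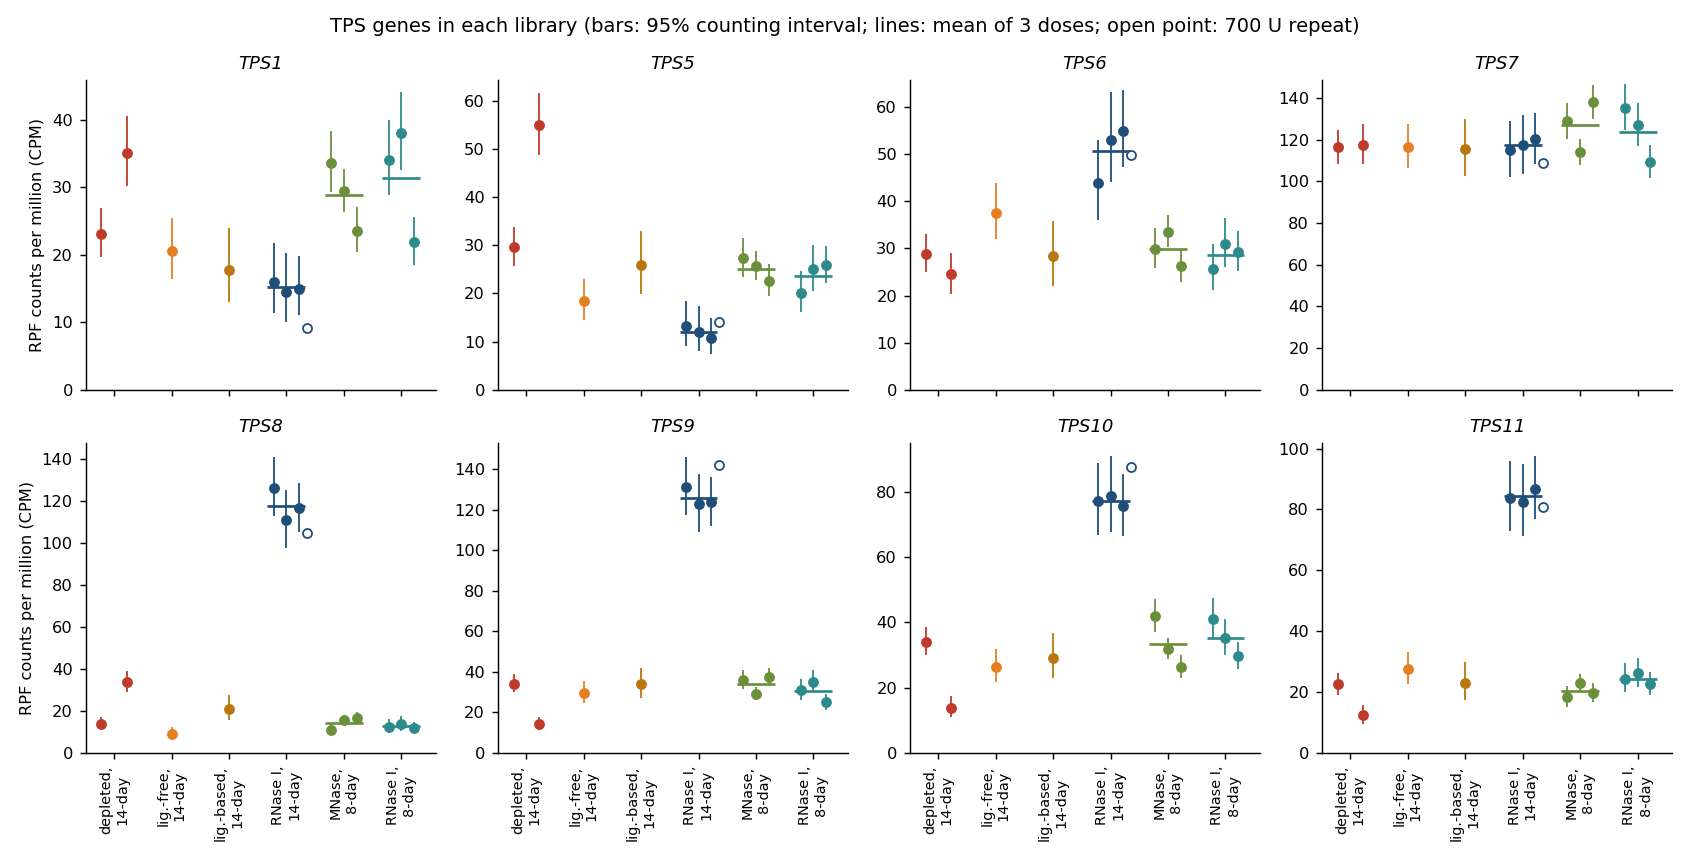
Level of each TPS gene in every library, in CPM on linear axes from 0, with groups along the horizontal axis, exact 95% counting intervals as bars and the mean of 3 doses as a line. TPS8 lay at 111 to 126 CPM in the 3 undepleted 14-day libraries and at 8.97 to 33.7 CPM in all other libraries except the 700 U repeat (open point), while TPS7 stayed at 109 to 138 CPM throughout.

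The summed level of the family was 591 to 607 CPM in the 3 undepleted 14-day libraries and 598 CPM in the repeat. It was 275 to 331 CPM in the 10 other libraries, whose range held the depleted, the kit, the MNase and the 8-day RNase I libraries alike. The composition of the family differed with it. TPS7 held 19.0% to 19.9% of the family's counts in the undepleted 14-day libraries, 18.2% in the repeat and 37.7% to 44.4% in those 10 libraries.

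**Figure D2:**
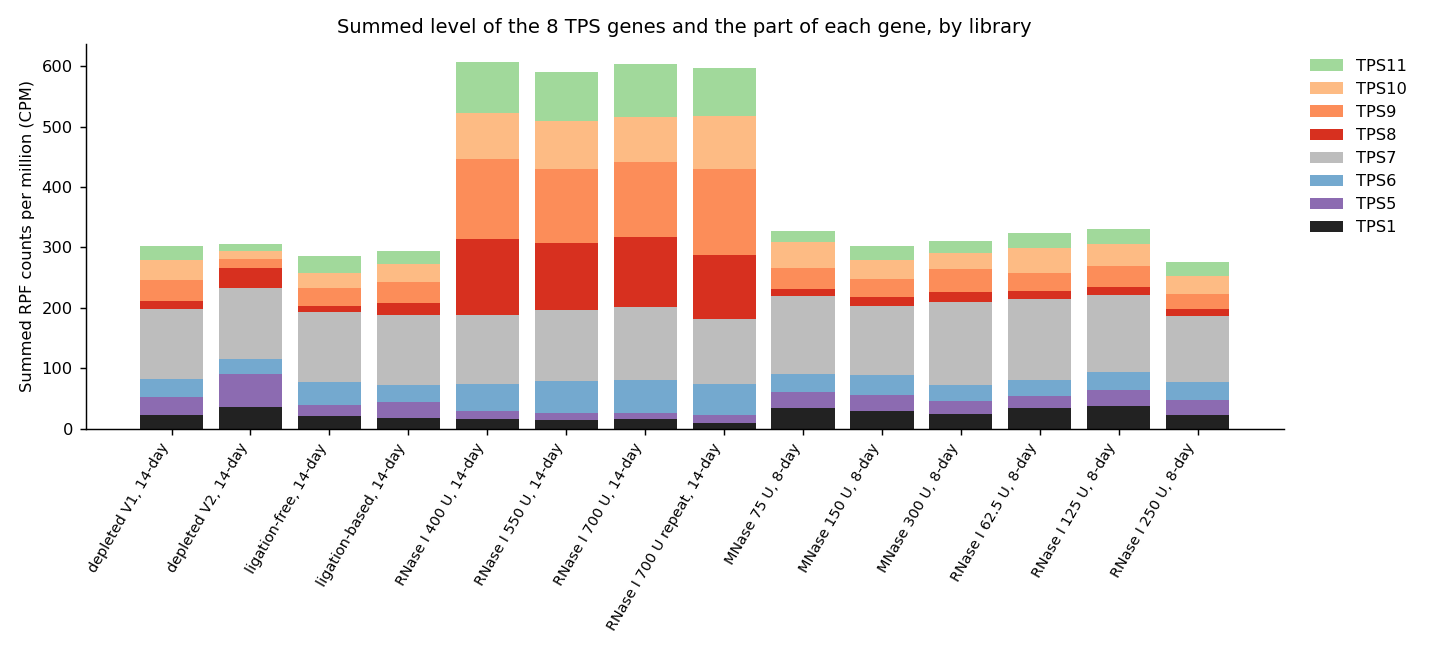
Stacked levels in CPM of the 8 TPS genes in each of the 14 libraries, on a linear axis from 0. The undepleted 14-day libraries and their repeat reach 591 to 607 CPM, where TPS8 to TPS11 make up most of the height, and the other libraries reach 275 to 331 CPM, with TPS7 as the largest part.

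Per kilobase of CDS, TPS7 led every group of libraries but the undepleted 14-day one and its 700 U repeat, where TPS9 led. At 8 days it had 49.7 ± 4.72 CPM per kb with MNase and 48.5 ± 5.16 CPM per kb with RNase I (SD, n = 3 doses each). The next member, TPS9 with MNase and TPS10 with RNase I, reached only 13.2 ± 1.71 and 13.5 ± 2.18 CPM per kb. The members between it and TPS8 had overlapping ranges with their neighbours in the order, and TPS8 came last at 5.61 ± 1.13 CPM per kb with MNase and 4.95 ± 0.345 CPM per kb with RNase I, below the range of the member above it in both groups. In the undepleted 14-day libraries the order was TPS9 (48.4 ± 1.83 CPM per kb), TPS7 (46.0 ± 0.990), TPS8 (45.9 ± 3.05), TPS11 (32.6 ± 0.839), TPS10 (29.5 ± 0.614), TPS6 (19.1 ± 2.22), TPS1 (5.36 ± 0.261) and TPS5 (4.62 ± 0.481), with SD over 3 doses. TPS7 and TPS8 overlapped there, and every other neighbouring pair did not over these 3 libraries. The 700 U repeat turned 2 of these pairs round, with TPS10 (33.5 CPM per kb) above TPS11 (31.3) and TPS5 (5.43) above TPS1 (3.26). TPS1, the known synthase, thus held rank 7 in these libraries, rank 4 with RNase I and rank 5 with MNase at 8 days. By mean level it was rank 3 in the depleted libraries, rank 6 in the ligation-free library and rank 8 in the ligation-based one.

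The study's first comparison asked whether RPF counts depend on the nuclease. None of the 8 members was called between MNase and RNase I at 8 days in edgeR, where 1.94% of all genes tested (324 of 16738, 1.3% higher and 0.633% lower) were, and none reached an unadjusted p under 0.05, which 11.6% of genes did. The log2 fold changes ran from -0.23 (TPS11, standard error 0.17, adjusted p = 0.67) to 0.21 (TPS8, standard error 0.22, adjusted p = 0.79). TPS11 had 18.3, 22.9 and 19.6 CPM with 75, 150 and 300 U of MNase, against 24.4, 26.1 and 22.6 CPM with 62.5, 125 and 250 U of RNase I, and the groups overlapped at 22.6 and 22.9 CPM. TPS1 had 33.5, 29.4 and 23.6 CPM with rising MNase, against 34.1, 38.0 and 21.8 CPM with rising RNase I. Its lowest level stood at the highest dose of both nucleases, where the 95% intervals reached 27.1 and 25.6 CPM, below the lower bounds of 29.2 and 28.9 CPM at the lowest doses. The same held for TPS10, with 41.8, 31.8 and 26.3 CPM with rising MNase and 41.1, 35.2 and 29.7 CPM with rising RNase I. Its intervals reached 30.0 and 34.1 CPM at the highest doses, below the lower bounds of 37.0 and 35.3 CPM at the lowest. The other members did not have their lowest level at the highest dose of both nucleases. There is 1 library per dose, and a dose trend was not tested. A miss of the threshold does not show equal levels. In simulated data of the same design the test recovered 66% of 2-fold changes, over genes drawn from all those tested, whatever their counts. That share is not specific to genes with the counts of these members, whose standard errors ran from 0.09 (TPS7) to 0.22 (TPS8).

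Between the ages, 5 of 8 members were higher in undepleted 14-day than in 8-day RNase I libraries, 2 lower and TPS7 not called (edgeR). That count stands against a background of 50.4% of all 15460 genes tested, with 25.3% higher and 25.1% lower. The median log2 fold change was 0.95 over the members and 0.01 over all genes. Age, light cycle, medium and dose differ together here, plantings may differ too, and these cannot be told apart. The depleted and kit libraries share the labelled age and light cycle of the undepleted 14-day ones. Their summed family levels were 302 CPM (V1), 306 CPM (V2), 286 CPM (ligation-free) and 295 CPM (ligation-based). The 8-day RNase I libraries had 275 to 331 CPM and the undepleted 14-day ones 591 to 607 CPM. Where ages are compared, 14-day levels are therefore those of the undepleted libraries only. The cause was not tested.

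TPS8, a class II gene known for induction by carbon starvation, had 126, 111 and 116 CPM at 14 days with 400, 550 and 700 U, against 12.4, 13.7 and 12.0 CPM at 8 days with 62.5, 125 and 250 U. These undepleted 14-day libraries all lay far above the 8-day RNase I libraries. The edgeR estimate on the log2 scale was 3.18 (standard error 0.12, adjusted p = 4.7e-31). TPS9, its closest paralog, had 131, 123 and 124 CPM at 14 days, against 30.9, 35.2 and 24.9 CPM at 8 days (log2 fold change 2.04, standard error 0.11, adjusted p = 1.8e-24 in edgeR). The pair changed unequally within libraries: TPS8 had 0.902 to 0.960 counts per TPS9 count in the 14-day libraries and 0.390 to 0.482 in the 8-day libraries. TPS11 had 83.9, 82.5 and 86.8 CPM at 14 days, against 24.4, 26.1 and 22.6 CPM at 8 days (log2 fold change 1.77, adjusted p = 4.8e-20 in edgeR). TPS10 had 77.1, 78.7 and 75.5 CPM at 14 days, against 41.1, 35.2 and 29.7 CPM at 8 days (log2 fold change 1.11, adjusted p = 2.4e-12 in edgeR). In both genes the 2 sets of libraries did not overlap. TPS6, a class II member known for a role in cell shape, had 43.9, 53.0 and 55.0 CPM at 14 days, against 25.7, 31.0 and 29.2 CPM at 8 days (log2 fold change 0.79, adjusted p = 8.2e-07 in edgeR).

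TPS1 and TPS5 moved the other way. TPS1 had 16.0, 14.5 and 15.0 CPM at 14 days, against 34.1, 38.0 and 21.8 CPM at 8 days, and all 14-day values lay below the lowest 8-day value (log2 fold change -1.05, standard error 0.19, adjusted p = 3.7e-06 in edgeR). TPS5, the member known for induction by sugar, had 13.2, 12.0 and 10.7 CPM at 14 days, against 20.1, 25.0 and 25.8 CPM at 8 days (log2 fold change -1.03, standard error 0.19, adjusted p = 9.5e-06 in edgeR). Both rest on few counts at 14 days, 34 to 49 in TPS1 and 28 to 35 in TPS5. TPS7 had 115, 117 and 120 CPM at 14 days, inside the range of 109 to 135 CPM at 8 days (log2 fold change -0.10, standard error 0.09, adjusted p = 0.34 in edgeR). The opposite moves are visible within libraries, without any scaling between them: TPS8 had 9.25 to 10.9 counts per TPS5 count in the 14-day libraries and 0.466 to 0.618 in the 8-day libraries.

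**Figure D3:**
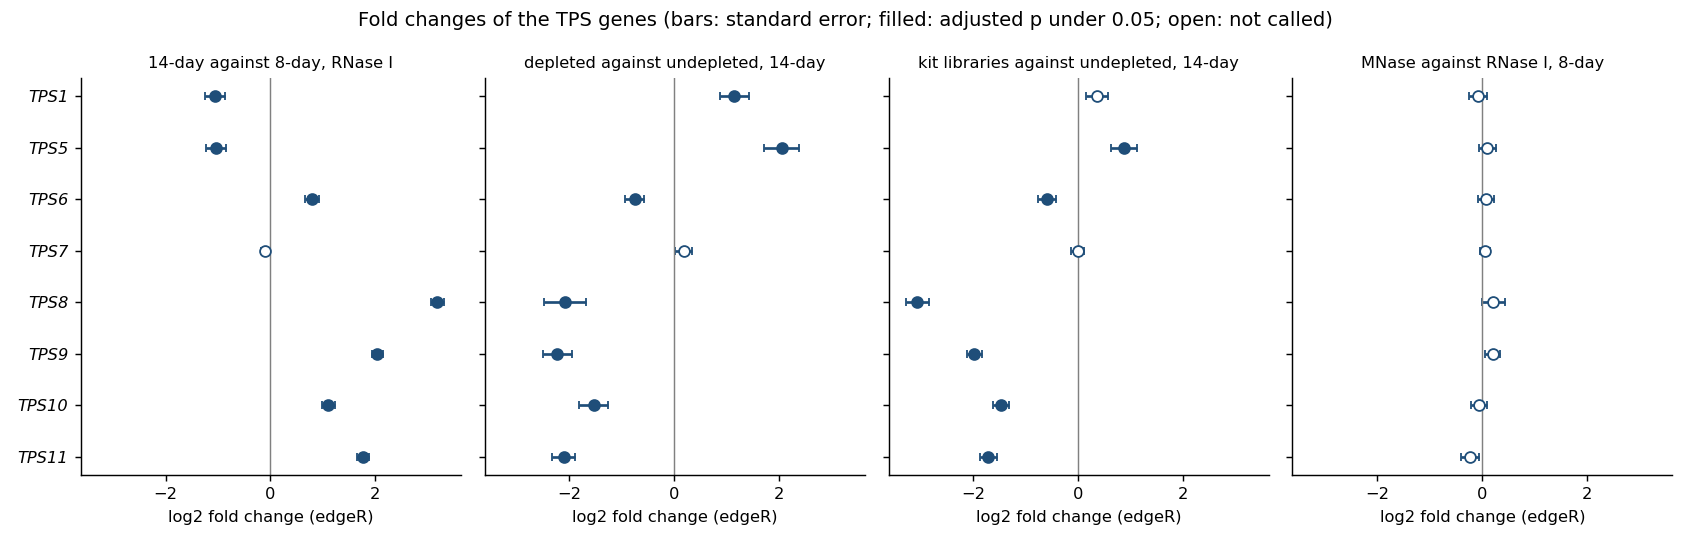
log2 fold changes of the 8 TPS genes in 4 comparisons (edgeR), with standard errors as bars and filled points for an adjusted p under 0.05. TPS8 stands at 3.18 for undepleted 14-day against 8-day RNase I libraries. It lies below 0 for depleted and kit libraries against the undepleted 14-day ones, and TPS7 stays near 0 in all 4 panels.

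The next comparison set the depleted libraries against the undepleted 14-day ones, where depletion, size selection and dose differ together. Plant material may differ as well, since nothing says that these libraries came from the same planting. V1 lay close to the RNase I libraries of the younger plants, as given above, and V2 did not, so the pair may not be like replicates. The part of each difference in the changes was not tested. TPS5 and TPS1 were higher in the depleted libraries, 5 members (TPS6, TPS8, TPS9, TPS10 and TPS11) were lower and TPS7 was not called in edgeR. The background was 22.6% of 15532 genes, 10.9% higher and 11.7% lower, and the median log2 fold change was -1.14 over the members and 0.03 over all genes. Scaling by library totals in place of TMM moved that median over all genes to -0.14 and the split of calls to 930 higher and 2094 lower, from 1693 and 1813, while the members' calls kept their number and direction. This comparison and that of the kits below use the same undepleted 14-day libraries, which were also part of the comparison of ages.

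V1 and V2 both lay on the same side of the undepleted libraries for every called member, but they differed in size for most of them. Fits without V1 or V2 leave a lone depleted library, whose spread cannot be estimated, so only the change of each gene is given for them. TPS8 had 13.9 CPM in V1 and 33.7 CPM in V2, against 126, 111 and 116 CPM in the undepleted libraries (-2.08 on the log2 scale, standard error 0.39, adjusted p = 0.0085 in edgeR). Without V1 the log2 fold change was -1.48, and without V2 it was -3.02. TPS9 had 34.1 CPM in V1 and 14.3 CPM in V2, against 131, 123 and 124 CPM (log2 fold change -2.23, adjusted p = 0.0016 in edgeR; -2.82 without V1 and -1.82 without V2). TPS8 and TPS9 were thus lower in both depleted libraries than in any undepleted one, with V2 holding the higher of the depleted values for TPS8 and the lower one for TPS9. TPS10 had 34.0 and 13.9 CPM in V1 and V2, against 77.1, 78.7 and 75.5 CPM (log2 fold change -1.54, adjusted p = 0.0066 in edgeR; -2.15 without V1 and -1.12 without V2). TPS11 had 22.5 and 12.3 CPM in V1 and V2, against 83.9, 82.5 and 86.8 CPM (log2 fold change -2.11, adjusted p = 0.00075 in edgeR; -2.45 without V1 and -1.85 without V2). For both genes the depleted and undepleted libraries did not overlap.

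TPS5 had 29.6 CPM in V1 and 54.9 CPM in V2, the highest level of the gene in any library, against 13.2, 12.0 and 10.7 CPM in the undepleted libraries (log2 fold change 2.05, standard error 0.34, adjusted p = 0.0051 in edgeR; 2.53 without V1 and 1.38 without V2). TPS1 had 23.1 and 35.1 CPM in V1 and V2, against 16.0, 14.5 and 15.0 CPM (log2 fold change 1.15, adjusted p = 0.022 in edgeR; 1.53 without V1 and 0.67 without V2). TPS6 had 28.8 and 24.5 CPM in V1 and V2, against 43.9, 53.0 and 55.0 CPM (log2 fold change -0.75, adjusted p = 0.022 in edgeR; -0.73 without V1 and -0.76 without V2). The calls of TPS1 and TPS6 were lost when any of the undepleted libraries was left out (adjusted p = 0.083 to 0.096 for TPS1 and 0.058 to 0.10 for TPS6 in edgeR), and that of TPS8 without the 700 U library (adjusted p = 0.056 in edgeR). TPS7 had 116 and 118 CPM in V1 and V2, against 115, 117 and 120 CPM (log2 fold change 0.18, adjusted p = 0.44 in edgeR). Its fitted change was -0.0052 with library totals in place of TMM, and 0.32 without V1.

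Set against the 8-day RNase I libraries instead, V1 and V2 parted (comparisons added after the data had been seen). No member was called for V1 in edgeR (0.886% of all genes), and the lowest adjusted p was 0.68 for TPS1 (log2 fold change -0.43, unadjusted p = 0.044). For V2, 6 members were called in edgeR (27.6% of all genes): TPS8 at 1.71, TPS5 at 1.50 and TPS1 at 0.49 were higher, and TPS10 at -1.04, TPS9 at -0.78 and TPS11 at -0.68 were lower. TPS6 (0.07, adjusted p = 0.86) and TPS7 (0.23, adjusted p = 0.092) were not called in edgeR. In these fits a lone library is assumed to vary like the others. V2 was therefore the only library in which TPS8 stood above TPS9, with 2.36 TPS8 counts per TPS9 count (95% interval 1.79 to 3.15), against 0.301 to 0.960 in the other 13 libraries.

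Between V1 and V2 there is 1 library each and no test. The summed level of the family was 302 CPM in V1 and 306 CPM in V2, a log2 ratio of -0.02 (95% interval -0.11 to 0.08), which became -0.34 with TMM factors. The parts of the family nevertheless differed: the log2 ratio of V1 to V2 was 1.29 for TPS10, 1.26 for TPS9 and 0.87 for TPS11, and -1.28 for TPS8, -0.89 for TPS5 and -0.60 for TPS1, each with an interval that left out 0. TPS6 (0.23, from -0.09 to 0.56) and TPS7 (-0.02, from -0.17 to 0.14) had intervals that held 0. With TMM factors TPS7 was at -0.33 (from -0.49 to -0.18), which leaves out 0, and TPS9, TPS10 and TPS11 were at 0.94, 0.97 and 0.55, so the call of TPS7 depends on the scaling between these libraries. At least 2-fold on the log2(CPM + 1) scale were 3 of the 8 members, and 11.7% of 10241 genes with a mean of at least 50 counts. Root markers summed to 2115 CPM in V1 and 1321 CPM in V2, and leaf markers to 30359 CPM in V1 and 41381 CPM in V2. Their part in these ratios was not tested.

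**Figure D4:**
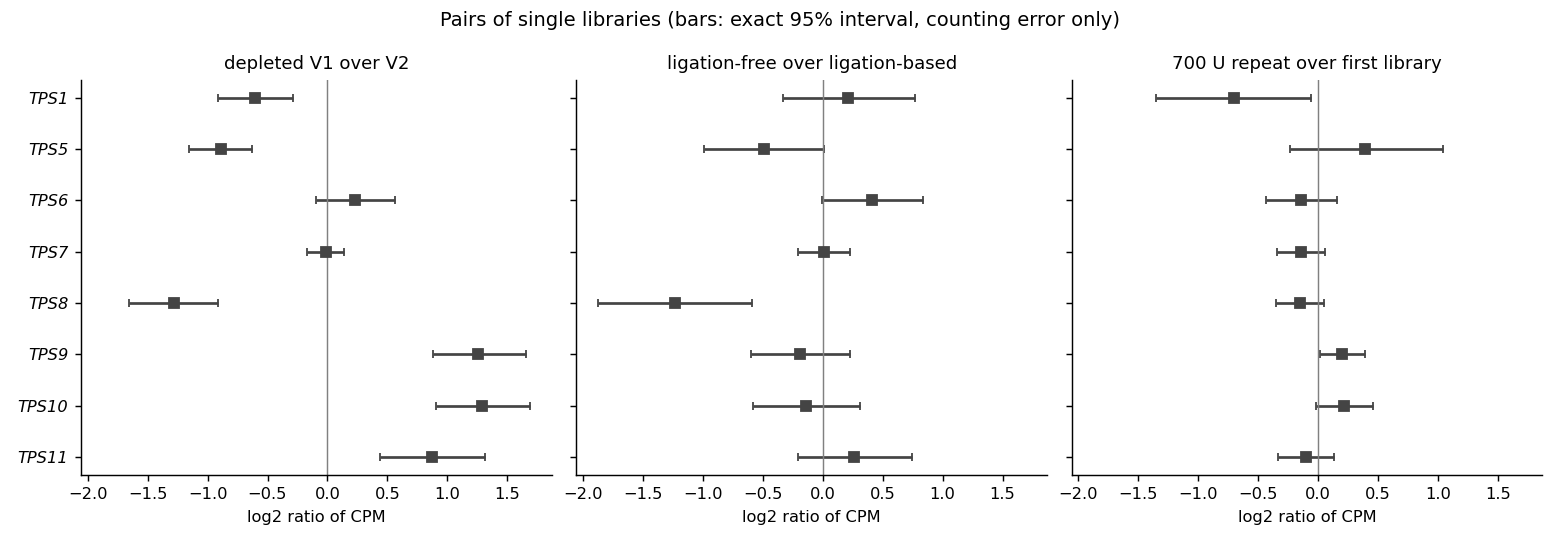
log2 ratio of CPM for each TPS gene between 3 pairs of single libraries, with exact 95% intervals for counting error. Between V1 and V2, 6 genes lie away from 0 on both sides, between the kits only TPS8 does (-1.23, library totals in all panels), and between the repeat and the first 700 U library TPS1 (-0.70) and TPS9 (0.20) do.

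The kit libraries gave a similar picture against the undepleted 14-day ones, with 1 member higher, 5 lower and 2 not called in edgeR, where 27.9% of 14823 genes were called (13.4% higher and 14.5% lower). The median log2 fold change was -1.03 over the members and 0.01 over all genes. Kit, depletion, size selection and dose differ together here, and nothing says that these libraries came from the same planting. TPS8 had 8.97 CPM in the ligation-free and 21.0 CPM in the ligation-based library, against 126, 111 and 116 CPM in the undepleted libraries (log2 fold change -3.06, standard error 0.22, adjusted p = 1.9e-10 in edgeR; -3.72 without the ligation-based and -2.42 without the ligation-free library). TPS9 had 29.8 and 34.0 CPM in the ligation-free and ligation-based libraries, against 131, 123 and 124 CPM (log2 fold change -1.98, adjusted p = 2.9e-10 in edgeR). Both lay far below every undepleted library. TPS11 had 27.6 and 23.1 CPM in the ligation-free and ligation-based libraries, against 83.9, 82.5 and 86.8 CPM (log2 fold change -1.71, adjusted p = 8.3e-09 in edgeR). TPS10 had 26.4 and 29.1 CPM, against 77.1, 78.7 and 75.5 CPM (log2 fold change -1.47, adjusted p = 1.0e-07 in edgeR).

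The remaining members changed less between the kit and the undepleted libraries. TPS5 had 18.4 and 25.9 CPM in the ligation-free and ligation-based libraries, against 13.2, 12.0 and 10.7 CPM (log2 fold change 0.88, adjusted p = 0.0082 in edgeR), and the call was lost without the ligation-based library (0.62, adjusted p = 0.083 in edgeR). TPS6 had 37.6 and 28.3 CPM, against 43.9, 53.0 and 55.0 CPM (log2 fold change -0.59, adjusted p = 0.0099 in edgeR), with an adjusted p of 0.054 in DESeq2 and 0.065 without the 700 U library in edgeR. TPS1 and TPS7 were not called. TPS1 had 20.6 and 17.8 CPM, against 16.0, 14.5 and 15.0 CPM (log2 fold change 0.36, adjusted p = 0.24 in edgeR). TPS7 had 117 and 116 CPM, against 115, 117 and 120 CPM (log2 fold change -0.0033, adjusted p = 0.99 in edgeR), a value so near 0 that its sign turned under 5 of the 11 alternative settings.

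Between the kits themselves, again 1 library each with no test, TPS8 was the member that differed, at a log2 ratio of ligation-free to ligation-based of -1.23 (95% interval -1.88 to -0.59, from 37 and 52 counts). It was also the 1 member of 8 past 2-fold on the log2(CPM + 1) scale, as were 0.985% of 7816 genes. With library totals the intervals of the other 7 members held 0. With TMM factors that of TPS5 left it out (-0.60, from -1.10 to -0.10), and with nuclear genes as the total that of TPS6 did (0.44, from 0.03 to 0.87), while TPS8 left it out under all 3 scalings. The summed level of the family was 286 CPM in the ligation-free and 295 CPM in the ligation-based library, a log2 ratio of -0.04 (95% interval -0.18 to 0.09) that became -0.16 (from -0.29 to -0.02) with TMM factors. The repeat of the 700 U library, made from the same fragments, shows what library preparation alone can change. TPS1 had 9.20 CPM in the repeat and 15.0 CPM in the first library (log2 ratio -0.70, 95% interval -1.35 to -0.06), TPS9 had 142 and 124 CPM (0.20, from 0.02 to 0.39), and the other 6 intervals held 0 with library totals. TPS1 left out 0 under all 3 scalings, but with TMM factors TPS9 held it and TPS7 (-0.21) and TPS8 (-0.22) did not, and with nuclear genes as the total TPS10 (0.25) left it out too. No member was past 2-fold there, against 1.63% of 8516 genes.

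Fewer genes of the rest of the T6P pathway could be tested, since most had few counts. Of 10 T6P phosphatase genes 6 were tested between the ages, and 3 of them, TPPJ (-1.28), TPPB (-1.17) and TPPE (-1.03), were lower at 14 days in edgeR, with adjusted p = 0.013 to 0.031. Over all genes 50.4% were called and 25.1% were lower, so that 3 of 6 called is near the share over all genes. TPPJ (AT5G65140) had 1.20, 2.57 and 2.14 CPM at 14 days, against 3.84, 5.75 and 4.60 CPM at 8 days, from 3 to 7 counts a library at 14 days. It was the phosphatase called in the depleted libraries (log2 fold change 2.20, adjusted p = 0.022 in edgeR, 1 of 6 tested; without V1 or V2 it no longer passed the count filter) and in the kit libraries (1.95, adjusted p = 0.0050 in edgeR, 1 of 5 tested). Of 4 phosphatases tested in the depleted comparison without V1, TPPE was at 3.01, TPPH at 2.01, TPPG at 0.22 and TPPA at -0.12. Without V2 these were at 0.60, -0.13, 0.77 and 0.35. Trehalase (TRE1) was not called in any of the 4 comparisons. TPS2 and TPS4 of class I summed to at most 0.970 CPM in every library.

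SnRK1 and its targets were read from lists chosen with earlier results of these data known, so their direction is no independent evidence. Of 5 SnRK1 subunits tested, 3 were higher at 14 days than at 8 days: the beta subunit AKINBETA1 (AT5G21170) at a log2 fold change of 2.94, and the catalytic subunits KIN11 at 0.47 and KIN10 at 0.39 (edgeR, adjusted p = 2.4e-27 to 0.014), where 50.4% of all genes were called and 25.3% were higher. AKINBETA1 had 79.9, 96.2 and 96.5 CPM at 14 days, against 11.1, 11.1 and 12.3 CPM at 8 days. The undepleted 14-day and the 8-day RNase I libraries thus did not overlap. It was lower in the depleted (-3.06, adjusted p = 0.00018; -3.24 without V1 and -2.91 without V2) and the kit libraries (-2.16, adjusted p = 8.3e-10) than in the undepleted 14-day ones in edgeR, and no other subunit was called there. Of 6 group C and S1 bZIP transcription factors tested, bZIP63 (2.89) and bZIP1 (2.07), known for sugar starvation responses under SnRK1, were higher at 14 days than at 8 days in edgeR. Both were lower in the depleted libraries (-2.39 and -2.03) and in the kit libraries (-3.51 and -3.89) than in the undepleted 14-day libraries in edgeR. These were 2 of 6 bZIP genes tested for the depleted and 2 of 5 for the kit libraries. Over all genes 11.7% were lower in the depleted and 14.5% in the kit libraries. For the depleted libraries, bZIP63 was at -1.95 without V1 and -2.94 without V2, and bZIP1 at -1.89 without V1 and -2.12 without V2. The other bZIP genes tested ran from -0.63 (bZIP53) to 0.40 (bZIP2) without V1. Without V2 they ran from -1.03 (bZIP53) to 1.51 (bZIP11).

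The sugar marker lists were also chosen with earlier results of these data known, so their direction is no independent evidence. All 11 sugar-starvation markers were higher at 14 days than at 8 days in edgeR, with a list median of 1.50. DYL1 (4.12), DRM2 (3.77), ASN1 (2.98) and SEN1 (2.55) led them. All 8 sugar-induced markers were lower, with a list median of -2.82. Over all genes 25.3% were higher and 25.1% were lower. GPT2 had 0 counts in all 3 undepleted 14-day libraries and was at least 33.8-fold lower there than its mean of 12.5 CPM at 8 days (against a floor of 3 counts over the group), and with it at this bound the median was again -2.82. PAP1 and BAM5 had at most 1 count in each undepleted 14-day library, so no fold is given, and DFR was at -3.19. In the depleted libraries 9 of 11 starvation markers were lower than in the undepleted 14-day ones, against 11.7% of all genes. All 6 sugar-induced markers with enough counts were higher there, against 10.9% of all genes. In the kit libraries 9 of 11 starvation markers were lower (14.5% of all genes) and 2 of 2 sugar-induced markers were higher (13.4%), all in edgeR. Without V1 the median log2 fold change of the starvation markers in the depleted comparison was -2.88, with KMD4 at 0.48. Without V2 that median was -1.34. For the 2 sugar-induced markers still tested the median was 2.86 without V1 and 2.21 without V2. Summed over the list, starvation markers had 518 CPM in V1 and 229 CPM in V2, 801 CPM in the ligation-free and 860 CPM in the ligation-based library, 1611 to 1704 CPM in the undepleted 14-day and 537 to 558 CPM in the 8-day RNase I libraries. The undepleted 14-day libraries and their repeat (1588 CPM) were thus highest in the summed level of these markers, as they were in TPS8 to TPS11. Not every single marker followed the sum. IVD had 98.2 CPM in the ligation-free library, against 77.5 to 89.5 CPM in the undepleted 14-day ones. Root markers moved too, with 6 of 6 tested lower at 14 days than at 8 days. They summed to 934 to 1048 CPM in undepleted 14-day and 1968 to 2035 CPM in 8-day RNase I libraries. They were higher in the depleted than in the undepleted 14-day libraries for 4 of 4 tested, and in the kit libraries for 2 of 4 (edgeR). Their median log2 fold change for the depleted libraries was 0.49 without V1 and 1.54 without V2. Of 5 leaf markers, 4 were higher at 14 days than at 8 days and 2 were lower in the kit than in the undepleted 14-day libraries (edgeR). No leaf marker was called for the depleted libraries, where their median log2 fold change was 0.30 without V1 and -0.49 without V2. The part of root and leaf markers in the changes of the TPS genes was not tested.

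The genes whose levels were most like those of each member were ranked by Pearson r of log2(CPM + 1) over the 14 libraries, among genes with a mean of at least 50 counts. The libraries share plant material and fall into groups, so r describes mainly which genes separate the undepleted 14-day libraries from the others, and no p is given. TPS11 had the closest match, TTA1 (AT1G14740, r = 0.993), followed by the response regulator RR1 (0.991) and WRKY15 (0.986). TPS8 was most like AT5G48490 (0.987), the raffinose-cleaving alpha-galactosidase SIP2 (0.982) and the blue light receptor CRY1 (0.981). TPS9 was most like AT3G10770 (0.985), ARI5 (0.982) and AT5G02160 (0.982), and TPS10 most like RFI2 (0.971), AT5G32440 (0.964) and TBL45 (0.962). TPS6 was most like the alpha-dioxygenase DOX1 (0.962), AT1G10020 (0.958) and the tubulin gene TUB5 (0.958). For TPS5 the closest were OMT1 (0.963), MAT3 (0.960) and CCoAOMT1 (0.958), which encode enzymes of methyl transfer and of S-adenosylmethionine supply. For TPS1 they were the argonaute gene AGO4 (0.928), DHS1 of aromatic amino acid synthesis (0.925) and the expansin gene EXPB3 (0.924). TPS7, with its flat profile, had no match above AT3G59660 (0.829), AT1G29850 (0.776) and the histone acetyltransferase HAG1 (0.732).

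Since TPS8 to TPS11 were higher together in the undepleted 14-day libraries, the promoters of 7 members were searched for short motifs in the 250 bases before the annotated gene start, on both strands. The TATCCA element, known from sugar-repressed genes of rice, was present in 13.6% of 27443 promoters of this length and in 2 of these members, TPS10 and TPS11. The G-box (CACGTG), bound by bZIP and other factors, was in 6.49% of promoters and in none of the 7 members. The ACTCAT element, known as a target of group S bZIP factors, was in 12.3% of promoters and in TPS5, and the evening element (AAAATATCT) was in 2.36% of promoters and in none of the 7. No motif overlapped another one. Both windows with a TATCCA element are printed from the RefSeq genome in the direction of transcription, with every motif found in capitals (TGGATA is the element on the other strand).
TPS10 (chr1:22181741-22181990, minus strand): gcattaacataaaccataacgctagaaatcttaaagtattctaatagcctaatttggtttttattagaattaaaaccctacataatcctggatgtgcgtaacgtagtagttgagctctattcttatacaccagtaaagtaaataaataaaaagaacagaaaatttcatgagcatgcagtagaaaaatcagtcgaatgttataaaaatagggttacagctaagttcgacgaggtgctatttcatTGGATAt
TPS11 (chr2:8108648-8108897, plus strand): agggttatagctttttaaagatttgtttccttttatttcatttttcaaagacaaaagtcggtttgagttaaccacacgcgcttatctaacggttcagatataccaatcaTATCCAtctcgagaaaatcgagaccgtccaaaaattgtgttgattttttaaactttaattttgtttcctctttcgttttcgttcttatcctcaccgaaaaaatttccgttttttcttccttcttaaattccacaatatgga
TPS8 and TPS9, which differed most between the ages, held none of the 4 motifs in this window. A match describes letters in a window and does not show a bound site.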

How the data were processed

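RPFs of 14 Arabidopsis libraries were analysed from the counts over CDS that the authors deposited, which are whole numbers without normalization. Per the labels and the methods of the study, the authors removed adapters with cutadapt and aligned reads to TAIR10 with STAR, which kept 1 alignment per read. Aligned reads, those that map to several places included, were counted with featureCounts. The versions of these tools were not given in the sources used here. A read that fits several paralogs can therefore be counted in any of them. The 2 tobacco libraries and the read totals were not used here. TPS3 and AKINBETA2 were not analysed here.

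CPM were taken from library totals over CDS. Comparisons were tested with edgeR 4.0.16 (quasi-likelihood, TMM). Standard errors were derived from that test, as the absolute log2 fold change over the square root of its F statistic. A gene was tested if 3 libraries, or 2 where a group had 2, held 10 counts or more, with Benjamini-Hochberg adjustment over all genes tested and calls at an adjusted p under 0.05. The repeat 700 U library was left out of these fits. Fits were tested on simulated data with 200 changed genes, where 34% to 76% of 2-fold and 85% to 92% of 4-fold changes were recovered in the 4 comparisons. Levels between genes were compared per kb of CDS. All 8 members are named, and for each member the 3 most similar genes. Of other lists, up to 4 called genes with the largest change are named. Some further list genes are named where fits without V1 or V2 are given, or where they departed from their list. The members and lists were chosen with earlier results of these data known. Sequences were read from the RefSeq genome (TAIR10.1), whose CDS started and ended as in the deposited tables in 99.7% of 27419 nuclear genes, the stop codon aside; CDS were aligned with MAFFT 7.526. The promoter of 1 member is not reported here. Alternatives were DESeq2 1.42.0, library totals, no count filter, nuclear genes only, all libraries in 1 fit, other uses of the 700 U repeat, and leaving out each library.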

Additional observations from a re-analysis of the deposited data

How the results depend on the processing

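Of the 8 members, 7 were called between the ages under all 13 alternatives and none between the nucleases under all 11. Leaving out 1 library gave 4 to 8 called members for the depleted against the undepleted libraries, the lowest without the 700 U library, and 5 to 6 for the kit libraries. The calls over all genes depended more on the setting: 125 to 399 for MNase against RNase I when 1 library was left out (125, 146 and 209 without the 62.5, 125 and 250 U RNase I libraries) and 5 with all 12 libraries in 1 fit, 1120 to 6080 for depleted against undepleted when 1 library was left out (1213 without the 400 U, 1245 without the 550 U, 1120 without the 700 U, 6080 without V1 and 5875 without V2), and 2546 with DESeq2 for the kit libraries. Fits without V1, V2 or a kit library leave a lone library in 1 group, so their calls rest on the spread between the undepleted libraries. The cause of the differences between settings was not tested. With nuclear genes as the total, the summed level was 392 CPM for MNase, 396 for 8-day RNase I, 707 for undepleted 14-day, 710.0 for its repeat, 398 for depleted, 359 for ligation-free and 361 for ligation-based libraries. The V1 to V2 log2 ratio of the family was -0.34 with TMM factors.

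Changes of sign occurred only in members that were not called. Leaving out 1 library of MNase against RNase I, log2 fold changes ran from -0.31 to 0.091 for TPS1, -0.0095 to 0.18 for TPS6, -0.028 to 0.14 for TPS7 and -0.25 to 0.082 for TPS10. The change of TPS7 was -0.0052 for depleted against undepleted with library totals. For kit libraries against undepleted it was 0.020 with the 700 U libraries summed, 0.0027 with nuclear genes only, 0.057 with the repeat in place of the first 700 U library, and -0.026 to 0.038 when 1 library was left out. Counts of 28 to 49 in TPS1 and TPS5 limit both in the undepleted 14-day libraries. No paired analysis was possible because the labels give the groups no shared replicate numbers.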
